A study of Mus musculus with 2 samples.

Results

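Splicing regulators were followed in adult mouse heart as a set of 49 named genes, out of 15410 annotated genes with at least 1 read. The genes were chosen by name: muscle and neuronal regulators, SR proteins with their relatives, hnRNP proteins, kinases of SR proteins, and factors that recognise splice sites. All 49 had reads. The reads of a gene are the sum over all of its transcript models, whether known or new. Both libraries are long-read cDNA libraries from the heart of male B6CASTF1/J mice (a cross of C57BL/6J with CAST/EiJ) aged 18-20 months, each made from 2 µg of total RNA. The labels call them biological replicates 1 and 2 and give them the same donor identifier, so they do not show how many animals the RNA came from. There is 1 group and no treatment, genotype or time contrast. Every test below therefore compares 2 libraries against counting error, and its p-value says nothing about a condition or about the spread between animals. Transcript names, positions and sequences are those of GENCODE M21 on mm10.

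Pre-mRNA splicing removes introns at sites read by the U1 and U2 small nuclear ribonucleoproteins and by U2AF, and nearby bound proteins decide which optional exons are used. SR proteins, with an RNA recognition motif and an arginine/serine-rich tail, mostly promote the use of sites near where they bind, while many hnRNP proteins oppose it. Many genes of both families limit their own protein by splicing in an exon with an early stop codon, which sends the transcript to nonsense-mediated decay, or by keeping an intron. In heart, RBM20, RBM24, MBNL and CELF proteins are known for setting the muscle forms of sarcomere and ion-handling transcripts.

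The libraries held 688861 and 1003999 mouse reads. The remaining reads mapped to spike-ins. Each read was counted as 1 cDNA molecule. Counts per 1000000 mouse reads (CPM) are therefore compared between genes without division by length. Long transcripts that were not copied to their full length are not corrected for. Whether duplicate reads were removed is not given. A gene with 0 reads could be present at up to 4.36 CPM in replicate 1 and 2.99 CPM in replicate 2. This floor, like the 95% Clopper-Pearson intervals given below, covers counting error only. The tissue label was checked against markers: 8 of 8 cardiomyocyte markers had reads, with a summed level of 35050 and 37010 CPM. Of 6 neuronal markers only Tubb3 had a read (1 read), and of 6 skeletal muscle markers only Ckm, which heart also expresses, had reads. Of 6 blood markers 5 had reads, led by Hba-a1 (4056 ± 252.5 CPM, SD, n = 2). In bulk tissue, fewer cells of a type and less RNA per cell cannot be told apart.

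The 49 genes together gave 4085 CPM in replicate 1 (2814 reads) and 3763 CPM in replicate 2 (3778 reads), or 3924 ± 227.7 CPM (SD, n = 2). Few genes carried most of these reads. The highest 5 members held 46.5% of the members' reads, Hnrnpa2b1 alone 20.9%, and the 9 members at 100 CPM or more 62.8%, while the 10 members under 20 CPM held 2.73%. The hnRNP genes, with Tardbp, were the largest class at 2015 ± 124 CPM, ahead of the muscle and neuronal regulators at 1040 ± 34.0 CPM and the SR and SR-like genes at 735.5 ± 54.1 CPM. The 3 splice site factors summed to 101 ± 13.2 CPM and the 2 CLK kinases to 32.9 ± 2.80 CPM. The median of the 49 genes was 36.1 CPM. Over genes with 10 or more reads, the median was 40.8 CPM for the 47 members among them and 25.6 CPM for all annotated genes.

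**Figure D1:**
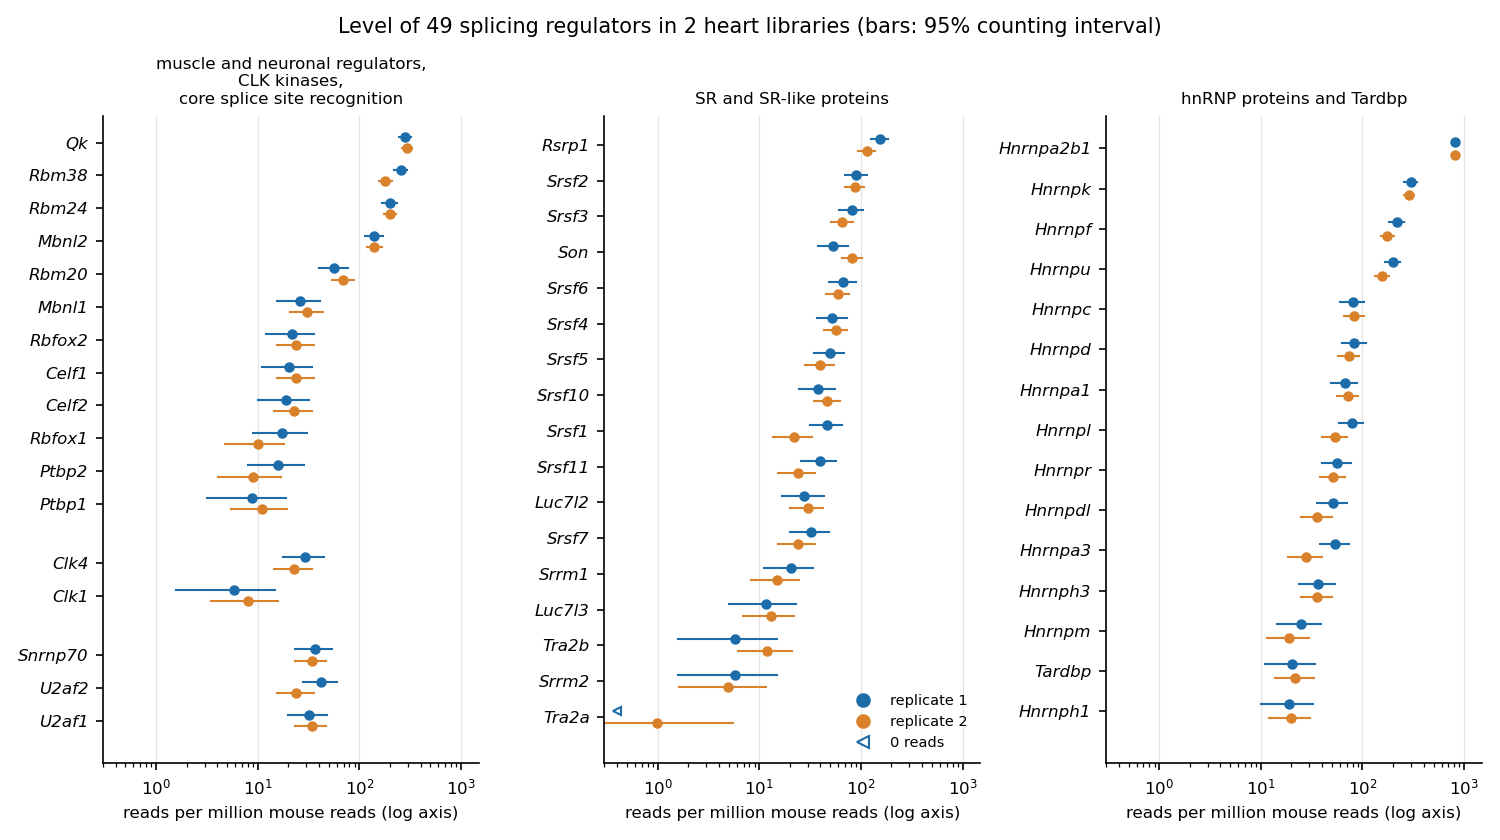
Level of each splicing regulator in CPM (log axis) in replicate 1 and replicate 2, with 95% Clopper-Pearson intervals, grouped by role. Hnrnpa2b1 stands highest, at 818.7 and 813.7 CPM. The intervals of the 2 libraries overlap for 48 of 49 genes, Rbm38 being the exception, and overlap was not counted over all genes.

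Among the muscle and neuronal regulators 4 genes stood above 100 CPM: Qk, Rbm38, Rbm24 and Mbnl2. Qk (chr17:10202601-10319854, minus strand, mm10), which encodes the STAR-family protein Quaking, gave 195 reads (283.1 CPM) in replicate 1 and 294 (292.8 CPM) in replicate 2. Rbm24 (chr13:46418434-46431095, plus strand), a promoter of muscle exon inclusion, gave 138 and 202 reads, or 200.3 and 201.2 CPM. Mbnl2 (chr14:120275669-120431697, plus strand), a muscleblind protein, gave 96 and 141 reads, or 139.4 and 140.4 CPM. For Qk, Rbm24 and Mbnl2 the difference between libraries was within counting error. Rbm38 (chr2:173020498-173034734, plus strand), an RNA recognition motif protein related to Rbm24, gave 176 reads (255.5 CPM) and 181 reads (180.3 CPM). It is the only one of the 49 genes whose count intervals in the 2 libraries do not overlap. Overlap was not counted over all genes, of which 297 of 8836 (3.36%) passed the test between libraries given below.

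Rbm20 (chr19:53677306-53867080, plus strand), the repressor of titin exons whose loss causes cardiomyopathy, was lower, at 39 and 70 reads (56.62 and 69.72 CPM). Mbnl1, another muscleblind gene, had 18 and 31 reads and a mean of 28.5 ± 3.36 CPM (SD, n = 2). Mbnl2 thus had more reads than Mbnl1 in both libraries, and the count intervals of the 2 genes did not overlap. The remaining muscleblind gene, Mbnl3, which is not a member, had 0 reads in both. The CELF proteins, which often act against muscleblind, had few reads: Celf1 14 and 24, Celf2 13 and 23. Rbfox2, which binds UGCAUG beside muscle exons, had 15 and 24 reads and its relative Rbfox1 12 and 10. The polypyrimidine tract binding proteins, repressors of muscle and neuronal exons, were among the lowest members, with 6 and 11 reads of Ptbp1 and 11 and 9 of Ptbp2.

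Most Qk reads used an acceptor site that is at no exon end of GENCODE M21. Of 163 reads in replicate 1 that crossed this junction 130 (79.8%) removed an intron ending 24 nt inside the annotated exon, and 33 (20.2%, interval 14.4-27.2) used the annotated site. Replicate 2 gave 198 reads of the new form (85.7%) and 33 of the annotated one (14.3%). The new form was thus the main one in both libraries. It was carried by 3 of the 10 leading new spliced models of the members: one of 8 exons (79 and 115 reads) and a pair of 7 exons (32 and 63, and 14 and 11). The deposited tables class the first as NNC and the pair as NIC, a class meant for known splice sites, so this class and the comparison with the annotation differ for the pair. The first 60 nt of the annotated exon (chr17:10216400-10216459, minus strand, from transcript Qk-201 of GENCODE M21) are shown with the 24 nt that the new form leaves out in capitals. The left-out stretch is rich in pyrimidines, ends in AG like an acceptor site, and keeps the reading frame when removed.
Qk exon, first 60 nt: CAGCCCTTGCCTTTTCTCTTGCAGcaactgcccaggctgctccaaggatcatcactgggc

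The SR and SR-like genes were led by Rsrp1 (chr4:134923592-134927671, plus strand), an arginine/serine-rich protein gene, with 106 reads (153.9 CPM) and 115 reads (114.5 CPM). Srsf2, the SR protein SC35, gave 62 and 87 reads (mean 88.3 ± 2.37 CPM, SD, n = 2), and Srsf3, the smallest SR protein, 56 and 66 reads (81.29 and 65.74 CPM). Son, a large scaffold of nuclear speckles, had 37 and 82 reads (53.71 and 81.67 CPM). Rsrp1 and Srsf3 were lower and Son higher in replicate 2, and none of these differences passed the test. Srsf6 had 46 and 60 reads and Srsf4 had 36 and 57. Srsf5 had 34 and 40 reads, and Srsf10, a repressor when it is dephosphorylated, 26 and 47. Srsf1, the founding SR protein ASF/SF2, had 32 and 22 reads, fewer in the deeper library. Srsf11 had 27 and 24 reads, Srsf7 22 and 24, and the U1-associated Luc7l2 19 and 30 and Luc7l3 8 and 13. The 2 lowest members of all, Srrm2 and Tra2a, are in this class. Srrm1, a splicing coactivator, had 14 and 15 reads, and its large relative Srrm2 had 4 and 5. Tra2b, a transformer-2 homologue, had 4 and 12 reads, and Tra2a 0 and 1, which is under the floor in both libraries.

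Hnrnpa2b1 (chr6:51460932-51469894, minus strand), which encodes 2 RNA-binding isoforms named A2 and B1, had the most reads of any member, with 564 (818.7 CPM) and 817 (813.7 CPM). Hnrnpk (chr13:58391142-58403343, minus strand), a binder of C-rich RNA through KH domains, followed with 205 and 290 reads (297.6 and 288.8 CPM). The order of Hnrnpa2b1 and Hnrnpk was the same in both libraries, and their intervals were far apart. The Hnrnpa2b1 level rests mostly on partial reads, since 997 of its 1381 reads (72.2%) were on incomplete or genomic models (classes described below). On known models alone Hnrnpa2b1 had 179 and 151 reads, beside 158 and 160 for Rbm38. Hnrnpf, a binder of G runs, had 149 and 177 reads (216.3 and 176.3 CPM), and Hnrnpu, a nuclear scaffold protein, 138 and 156 (200.3 and 155.4 CPM). Hnrnpc, which binds U runs, had 55 and 83 reads and Hnrnpd, the mRNA stability factor AUF1, 57 and 74. Hnrnpa1, the relative of Hnrnpa2b1 known for exon silencing, had 46 and 72. Hnrnpl had 54 reads in each library and Hnrnpr 39 and 51, and Hnrnpdl, an AUF1-like protein, had 35 and 36. Hnrnph3 had 25 and 36 reads, Hnrnph1 13 and 20, Hnrnpm 17 and 19 and Tardbp, which encodes TDP-43, 14 and 22. Hnrnpa3 had 37 and 28 reads. It has 39 other loci of at least 90% identity over 50% or more of the shorter sequence and 200 nt. Of these copies 3 had reads of their own, together 25 reads or 38.5% of the reads of Hnrnpa3, so its level is uncertain. For the other members with copies the copies' reads came to at most 1.79% of the gene's.

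Almost every Hnrnpk read that covered the end of its coding part joined exons in a way the annotation does not hold. The annotation places a 16-nt exon there (chr13:58393853-58393868), which 0 of 179 reads in replicate 1 and 0 of 256 in replicate 2 contained (upper limits 2.04% and 1.43%). Instead 178 reads (99.4%) and 251 reads (98.0%) carried a preceding exon longer by 16 nt (chr13:58394060-58394075), followed by an intron that begins with GT and ends with AG. The same intron is in 5 of the 10 leading new spliced models of the members, the largest with 77 and 97 reads and 47 and 83. The exon and the extension have the same length. The 2 stretches, from Hnrnpk-201 and Hnrnpk-206 of GENCODE M21 on the minus strand, match at 8 of 16 bases, and capitals mark the bases that differ.
Hnrnpk exon of the annotation, 16 nt: gGtgGTtCtGGataTG
Hnrnpk extension in the new models, 16 nt: gTtgAGtAtCAataAT
Short annotated exons had few reads in other genes too. Among coding internal exons with 20 or more informative reads, 49 of 49 of 3-10 nt and 69 of 94 (73.4%) of 11-20 nt had no read that included them, beside 39 of 325 (12.0%) of 21-30 nt and 57 of 3609 (1.58%) of 31-60 nt. What part this has in the Hnrnpk form was not tested.

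**Figure D2:**
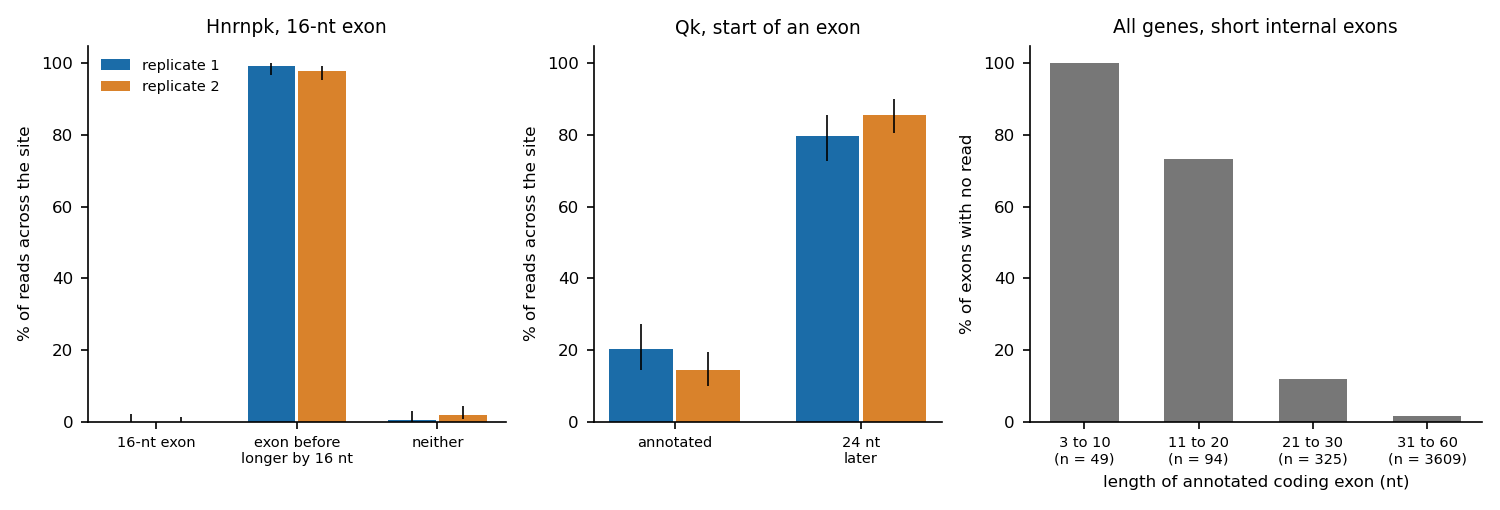
Percent of reads at the Hnrnpk and Qk junctions that used the annotated or the new splice form, in each library, with 95% Clopper-Pearson intervals. The new form holds 99.4% and 98.0% of Hnrnpk reads and 79.8% and 85.7% of Qk reads.

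The CLK kinases phosphorylate SR proteins and are known to keep introns in their own transcripts. Clk4 had 20 and 23 reads (29.03 and 22.91 CPM) and Clk1 4 and 8 (5.807 and 7.968 CPM). Of the splice site factors, Snrnp70, the U1 70K protein, had 25 and 34 reads, and the U2AF subunits had 29 and 24 reads for U2af2 and 22 and 34 for U2af1. U2AF small and large subunits thus had like means, 32.9 ± 1.36 and 33.0 ± 12.9 CPM (SD, n = 2). The mean of U2af2 joins unlike values, 42.1 and 23.9 CPM. Of the U2af1 reads 7 and 12 lay on U2af1-204, an annotated retained-intron transcript.

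Gene reads were compared between libraries with an exact two-sided binomial test for genes with 10 or more reads, adjusted by Benjamini-Hochberg over all genes tested. Of all annotated genes, 297 of 8836 (3.36%) passed an adjusted p of 0.05. Of the members 47 could be tested (Tra2a and Srrm2 had too few reads), 1 passed, and 7 had an unadjusted p under 0.05, beside 1061 of all 8836. The count that passed is near the background. The gene that passed was Rbm38, which fell by 0.50 on the log2 scale in replicate 2 (interval -0.81 to -0.20, adjusted p = 0.0381 by the exact binomial test). It also passed with a minimum of 20 reads (adjusted p = 0.0301), but not under the other settings tried: adjusted p = 0.105 with TMM factors, 0.104 with DESeq2 size factors, 0.0659 with no minimum of reads, 0.101 with known models only and 0.252 without genomic models. Single-exon reads of Rbm38 were classed differently in the 2 libraries, 16 and 0 as genomic and 0 and 20 as incomplete. Rbm38 is also known from red cells, and the 6 lymphocyte and red cell markers had summed levels of 6248 and 5717 CPM in the 2 libraries, Cd3e being at 0. Among them Hba-a1 was lower in replicate 2 (log2 -0.13, adjusted p = 0.0134 by the exact test) and Alas2 had 58 and 53 reads (log2 -0.66, adjusted p = 0.225). Their part in the Rbm38 difference was not tested. Among differences that did not pass were those of Srsf1 (log2 -1.05, adjusted p = 0.147), Hnrnpa3 (-0.92, 0.185), U2af2 (-0.79, 0.411) and Son (0.60, 0.368), by the same exact test. Of the 47 tested members 21 were higher and 26 lower in replicate 2, and their median log2 difference was -0.04, beside -0.06 for all genes.

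Close to 50% of the reads of these genes lay on a known transcript. The deposited tables class each model as known, incomplete (its introns are part of a known transcript's), new spliced (in or not in the catalogue of known splice sites, NIC and NNC) or genomic. Known models took 51.3% and 43.7% of member reads, beside 74.9% and 72.5% of the reads of all other genes. Incomplete models took 19.6% and 24.5% (others 12.6% and 14.9%), NIC models 14.4% and 12.9% (others 3.9% and 3.63%), NNC models 5.54% and 8.05% (others 2.83% and 2.68%), and genomic models 9.13% and 10.9% (others 5.8% and 6.36%). Hnrnpk, Qk and Mbnl2 held most of the members' new spliced reads, with 435, 334 and 193 in both libraries together. Member and other shares were set side by side with no test, and no share was taken without these genes. Between libraries the member shares of known (adjusted p = 4.14e-09), incomplete (7.81e-06), NNC (0.000122) and genomic reads (0.0261) differed by Fisher's exact test over reads, and that of NIC reads had an adjusted p of 0.0943. Class names were not assigned alike in both libraries, however. Of the spliced models with 4 or more reads, 2 models of Hnrnpk (47 and 83, and 7 and 8 reads) were NIC in one library and NNC in the other. Without the 9 spliced member models of any read number that carried more than 1 class, NNC models took 5.31% and 5.95% of reads (adjusted p = 0.345 by Fisher's exact test), so the NNC difference was lost without these models. Single-exon new reads switched too. In 8 members they were all genomic in replicate 1 and all incomplete in replicate 2, among them Rbm38, Hnrnpl (10 and 10 reads) and Rbm20 (2 and 15). Over all members single-exon reads were genomic in 257 and 410 cases and incomplete in 18 and 87. Without them 0 and 1 genomic reads are left, and the known (56.9% and 50.3%, adjusted p = 3.17e-06) and incomplete shares (4.48 percentage points higher in replicate 2, adjusted p = 0.000111) still differed by the same exact test. Leaving out Hnrnpa2b1 gave a known difference of -5.6 percentage points, beside -7.64, and an incomplete one of 2.58, beside 4.84. By Fisher's exact test their adjusted p was then 0.000154 and 0.00956. The NNC difference rose to 3.36 points, beside 2.5. The genomic difference was 1.75 percentage points, and 1.27 without Hnrnpa2b1 (adjusted p = 0.125). These tests pool the reads of all members and treat each read as independent.

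**Figure D3:**
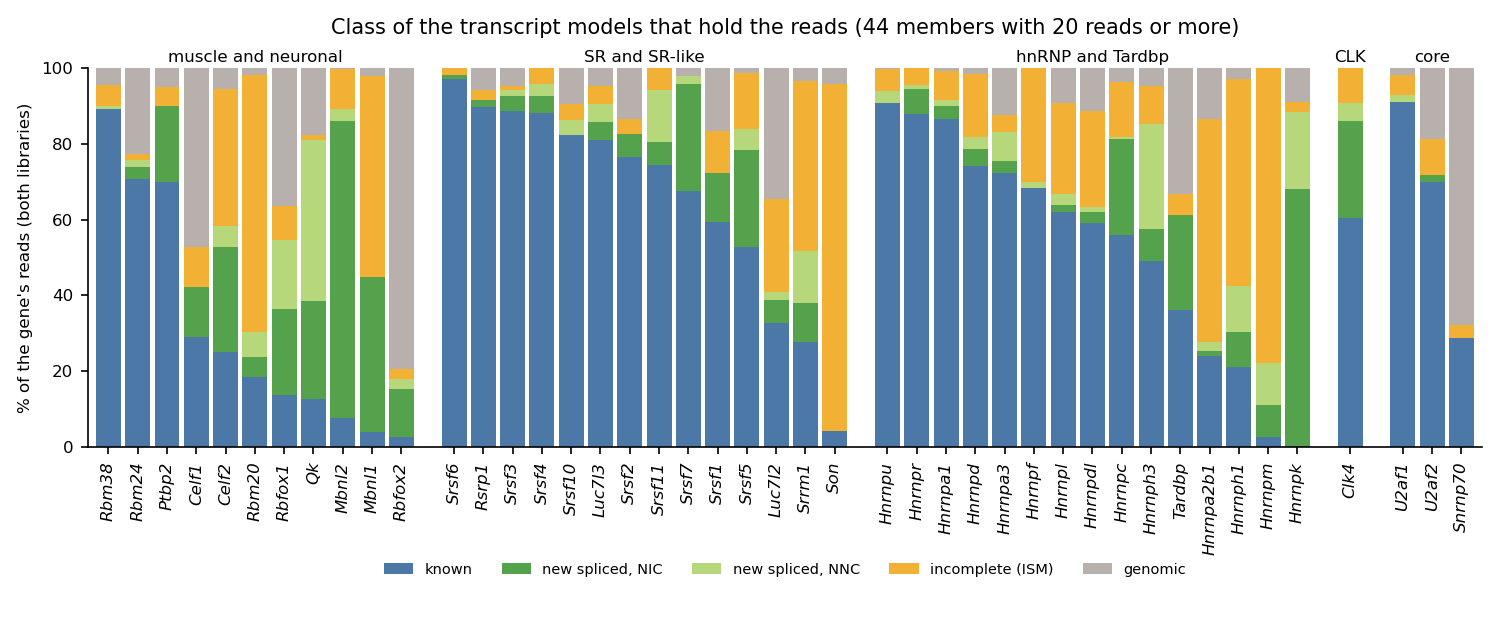
Percent of reads on known, new spliced (NIC or NNC), and incomplete or genomic models for the 44 splicing regulators with 20 or more reads, both libraries together. Srsf6 lies at 97.2% known, Hnrnpk at 0.404% known.

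Behind these averages the members ranged from nearly all known to nearly none. Of 44 members with 20 or more reads, 26 had 50% or more of them on known models, 10 had 50% or more on incomplete or genomic models and 3 on new spliced models. At the known end were Srsf6 (97.2% of the reads of both libraries), U2af1 (91.1%), Hnrnpu (90.8%), Rsrp1 (89.6%), Rbm38 (89.1%) and Srsf3 (88.5%). The new spliced end was made of Hnrnpk (87.9%), Mbnl2 (81.4%) and Qk (68.3%). The new Hnrnpk and Qk models are those of the junctions above, and the leading Mbnl2 model (75 and 104 reads) has only annotated introns and lacks a 95-nt exon of Mbnl2-204. In Hnrnpa2b1 the most common single model was an incomplete one of 2 exons, with 175 of 564 reads and 297 of 817 (36.4%). In Son 109 of 119 reads were incomplete, most of them on a piece of 3 exons with 30 and 67 reads. In Rbm20 74 of 109 reads were incomplete, led by a piece of 4 exons with 16 and 29 reads. Known transcripts with reads averaged 7589 nt in Son (5 known reads) and 4892 nt in Rbm20, weighted by reads. They averaged 7640 nt in Hnrnpu, with 90.8% of reads known, and 1626 nt in Hnrnpa2b1, with 72.2% incomplete or genomic. Whether length plays a part was not tested. In Rbfox2 79.5% of reads were single-exon and in Snrnp70 40 of 59 reads were genomic.

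Transcripts annotated as targets of nonsense-mediated decay were seen in Rbm38, Hnrnpa2b1, Hnrnpdl, Hnrnpa1, Srsf3 and 6 other members. They took 2.08% (interval 1.41-2.95) and 2.61% (1.89-3.49) of the known member reads, beside 0.201% and 0.21% of other protein-coding genes. Of 48 members with known reads 11 (22.9%) had at least 1 read on one, beside 427 of 10841 other genes (3.94%). Retained-intron transcripts took 4.16% and 4.85% of known member reads, beside 1.93% and 2.43%. They were seen in 24 of 48 members, beside 11.6% of other genes. The shares of members and other genes were set side by side with no test. A gene with more reads is more likely to have at least 1 on such a transcript, and the 2 sets were not matched for reads. Among genes with enough reads for the exact binomial test, the median level was 40.8 CPM for members and 25.6 CPM for all genes. How many such transcripts the annotation holds per gene was not taken into account either. The gene counts therefore do not show a trait of splicing regulators. The annotated decay transcripts with the most reads were Rbm38-206 (3 and 12 reads), Hnrnpa2b1-209 (6 and 7), Hnrnpdl-201 (8 and 3), Hnrnpa1-203 (2 and 8) and Srsf3-201 (6 and 4). Of retained-intron transcripts Rsrp1-204 led with 15 and 35 reads, ahead of U2af1-204 (7 and 12) and Rbm38-203 (9 and 5).

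Many members spread their reads over several transcripts. Here a transcript is any model, incomplete ones included. The leading transcript's median share was 50.6% over the 32 members with 20 or more reads in each library, beside 76.2% over 3938 genes, a difference that was not tested. It was above 50% in both libraries in 12 members and under 50% in both in 12. It was known in 24 of the 32, new spliced in 3, incomplete in 4 and single-exon in 1. Srsf6-203 (44 of 46 and 58 of 60 reads) and Hnrnpu-201 (132 of 138 and 135 of 156) held nearly all reads of their genes. Srsf4-202 held 80.6% and 93.0%, Srsf3-202 83.9% and 77.3%, Rbm38-201 80.7% and 77.3% and Rbm24-201 68.1% and 66.3%. Others were split: the leading Hnrnpd transcript held 28.1% and 28.4% and the leading Hnrnpc transcript 21.8% and 19.3%. By Fisher's exact test adjusted over all genes tested, 32 of 3938 (0.813%) differed in top share, with 294 at an unadjusted p under 0.05. Of the 32 members 0 differed, with 5 at an unadjusted p under 0.05. The nearest was Rsrp1-201, with 83 of 106 reads (78.3%) and 65 of 115 (56.5%, adjusted p = 0.0586). Snrnp70 single-exon models took 12 of 25 and 28 of 34 reads (adjusted p = 0.371).

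Optional exons were measured as the share of reads that hold an exon with both its splice sites. The reads counted are these and the reads whose intron spans the exon. Reads with a version of the exon that has another end count in neither. Of 48 member exons in 19 genes with enough reads, 23 are coding, and 18 of those 23 have a length that is a multiple of 3 and so keep the reading frame. In all 48 the library intervals overlap. By Fisher's exact test 0 of 4385 exons in all genes (0%) passed, with 70 at an unadjusted p under 0.05, and of the 48 member exons 0 passed, with 1 at an unadjusted p under 0.05. That was a 105-nt exon of Hnrnpdl with 12 of 26 reads (46.2%) and 3 of 23 (13.0%), adjusted p = 1.0. Median inclusion was 13.9% over the member exons and 92.5% over all, a difference that was not tested. The member exons include 9 that are not annotated and 6 found only in decay transcripts. The member exons and all exons were not matched for reads or for kind of exon.

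The 36-nt exon of Hnrnpa2b1 that makes its B1 form was rare: 14 of 195 reads (7.18%) in replicate 1 and 12 of 175 (6.86%) in replicate 2 contained it. A 120-nt exon further along, in the glycine-rich tail, was in 171 of 210 (81.4%) and 162 of 199 (81.4%) reads. The form without the 36-nt exon, A2, was thus the main one in both libraries. The B1 exon (chr6:51467391-51467426, minus strand, transcript Hnrnpa2b1-203) is shown because it separates the 2 named proteins.
Hnrnpa2b1 exon, 36 nt: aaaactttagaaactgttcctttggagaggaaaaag
The Hnrnpd exons that set its AUF1 isoforms were both included in part of the reads. The 57-nt exon was in 32 of 48 reads (66.7%) and 45 of 61 (73.8%), and the 147-nt exon in 31 of 51 (60.8%) and 33 of 66. The 107-nt decay exon of the same gene was in 3 of 54 (5.56%) and 5 of 71 (7.04%). The 57-nt exon (chr5:99976534-99976590) and the 147-nt exon (chr5:99963731-99963877), on the minus strand in Hnrnpd-201 and Hnrnpd-203, both keep the frame.
Hnrnpd exon, 57 nt: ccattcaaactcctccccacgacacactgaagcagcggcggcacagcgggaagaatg
Hnrnpd exon, 147 nt: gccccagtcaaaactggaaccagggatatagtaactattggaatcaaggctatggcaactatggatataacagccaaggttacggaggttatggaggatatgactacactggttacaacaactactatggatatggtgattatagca
In the other named hnRNP exons the intervals of the 2 libraries overlapped as well. The 72-nt exon of Hnrnpk was in 161 of 181 (89.0%) and 238 of 257 reads (92.6%), and an untranslated 26-nt exon of Hnrnpc in 29 of 44 (65.9%) and 44 of 67 (65.7%). The 159-nt glycine-rich exon of Hnrnpa1 was in 12 of 43 (27.9%) and 12 of 67 (17.9%). In Hnrnpr, a 169-nt exon was in 7 of 29 (24.1%) and 5 of 36 (13.9%), and a 166-nt version of it in 4 of 26 (15.4%) and 8 of 39 (20.5%). Each of these shares leaves out reads with the other version, so they understate use of the exon in either version. In Srsf7, a 36-nt exon was in 19 of 22 (86.4%) and 18 of 23 (78.3%).

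The exons of Mbnl1 and U2af1 described next fall below the read minimum. They, the Mbnl2 exons, the 36-nt exon of Hnrnpa2b1 and the 72-nt exon of Hnrnpk lie outside the rule for named exons and were chosen after their values were seen. The muscleblind genes share a 54-nt exon that is known to steer the protein to the nucleus and to be lost as heart matures. Mbnl2 included it in 0 of 91 reads (0%) and 5 of 129 (3.88%), and Mbnl1 in 1 of 12 (8.33%) and 3 of 22 (13.6%). Both genes thus mostly skipped it in this heart. The 95-nt exon was also mostly skipped in Mbnl2, in 5 of 92 (5.43%) and 16 of 133 reads (12.0%), but in Mbnl1 it was in 5 of 16 (31.2%) and 14 of 25 (56.0%), a difference between genes that was not tested. The 54-nt exons (chr3:60614683-60614736 for Mbnl1 and chr14:120395712-120395765 for Mbnl2, both plus strand) are identical at 46 of 54 bases (85.2%), and capitals mark the 8 that differ.
Mbnl1 exon, 54 nt: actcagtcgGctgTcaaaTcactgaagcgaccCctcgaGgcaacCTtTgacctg
Mbnl2 exon, 54 nt: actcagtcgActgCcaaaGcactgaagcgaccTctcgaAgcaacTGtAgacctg
U2af1 has a pair of 67-nt exons, of which a transcript is known to use one. The downstream exon was in 9 of 13 reads (69.2%) and 16 of 20 (80.0%), and the upstream one in 5 of 13 (38.5%) and 4 of 20 (20.0%). A read can hold both. The downstream exon led in both libraries, with intervals too wide at this depth to tell the libraries apart. The upstream exon (chr17:31652502-31652568) and the downstream one (chr17:31651646-31651712), both minus strand, are identical at 44 of 67 bases (65.7%), with the 23 differing bases in capitals.
U2af1 upstream exon, 67 nt: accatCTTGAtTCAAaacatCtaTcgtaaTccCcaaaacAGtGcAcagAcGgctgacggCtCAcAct
U2af1 downstream exon, 67 nt: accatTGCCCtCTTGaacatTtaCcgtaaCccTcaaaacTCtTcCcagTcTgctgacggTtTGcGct

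**Figure D4:**
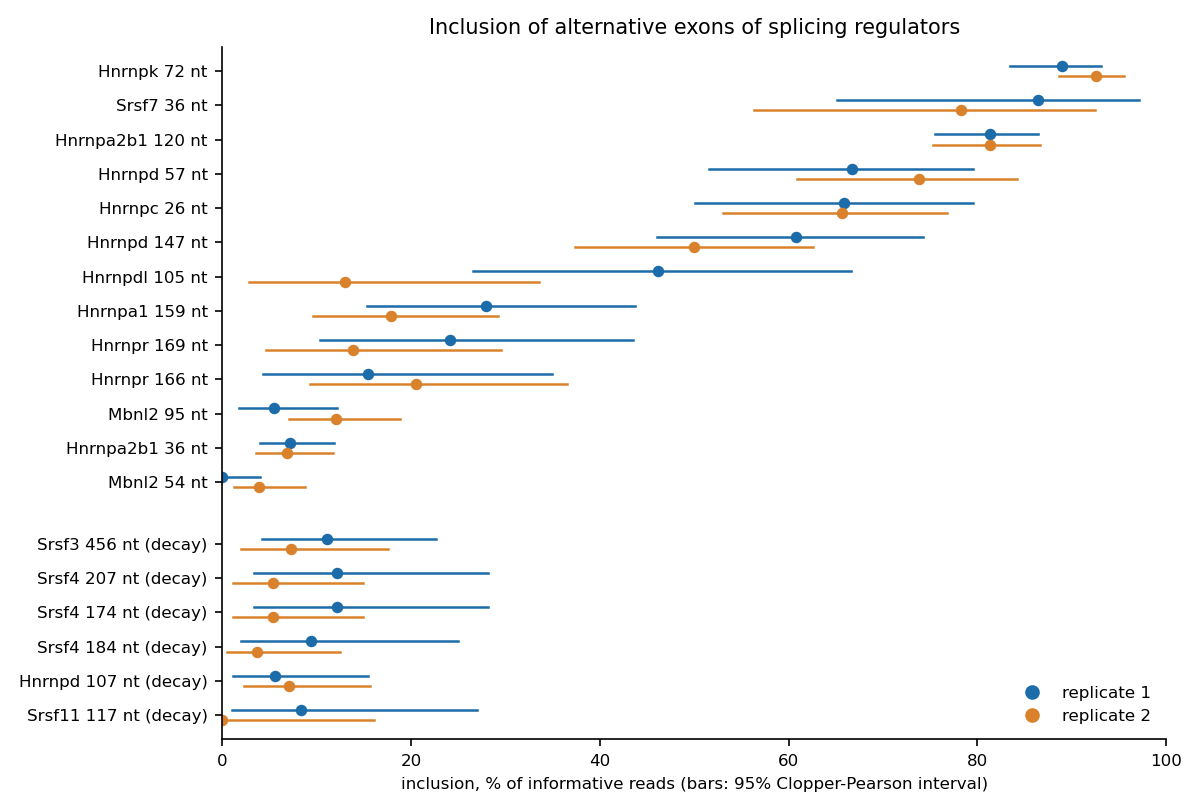
Inclusion of named optional exons in percent of informative reads, for each library, with 95% Clopper-Pearson intervals. The 120-nt exon of Hnrnpa2b1 lies at 81.4% in both libraries and the 36-nt exon at 7.18% and 6.86%.

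Decay exons of the SR genes were included at low levels. The 456-nt exon of Srsf3 was in 6 of 54 reads (11.1%) and 4 of 55 (7.27%), the 207-nt exon of Srsf4 in 4 of 33 (12.1%) and 3 of 56 (5.36%), and the 117-nt exon of Srsf11 in 2 of 24 and 0 of 21. Srsf6 is also known for such an exon, a 268-nt one, which had 0 and 1 read. The start of the Srsf3 exon (chr17:29039454-29039487, plus strand, Srsf3-201) and of the Srsf4 exon (chr4:131884276-131884390, plus strand, Srsf4-203) are shown up to the in-frame stop codon, which is in capitals, since this codon is what marks them as decay exons.
Srsf3 decay exon, start to stop codon: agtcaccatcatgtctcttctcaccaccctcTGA
Srsf4 decay exon, start to stop codon: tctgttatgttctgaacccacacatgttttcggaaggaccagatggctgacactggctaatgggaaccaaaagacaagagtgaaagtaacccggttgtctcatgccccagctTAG
Srsf4 has 2 further decay exons in the same stretch, of 184 nt (3 of 32 and 2 of 55 reads) and 174 nt (4 of 33 and 3 of 56). Decay exons of Clk4 (78 and 59 nt) and Luc7l2 (101 nt) had 1 read each in both libraries together. A 76-nt decay exon of Hnrnpa1 had 7 and 9 reads, and Tardbp had decay exons of 140 nt (3 and 5) and 260 nt (0 and 3). Few or no reads have an intron that spans these Hnrnpa1 and Tardbp exons, so no share is given for them. This does not mean that most reads hold the exons. Hnrnpa1 had 46 and 72 reads in all and Tardbp 14 and 22, and most of the remaining reads were not informative. The shares describe the RNA that was present, since transcripts already degraded leave no reads.

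Introns were counted as retained where an exon of a model covers them. Of all introns with enough reads 42 of 2303 (1.82%) passed Fisher's exact test, with 97 at an unadjusted p under 0.05. Of the 29 member introns in 17 genes 0 passed, with 2 at an unadjusted p under 0.05. The 1302-nt intron of Rsrp1 (chr4:134925433-134926734) was kept in 15 of 99 reads (15.2%, interval 8.74-23.8) and 35 of 103 (34.0%, 24.9-44.0), adjusted p = 0.0972. All of these reads hold it inside an internal exon, as in Rsrp1-204. With a minimum of 50 reads the adjusted p is 0.0437. Srsf5 kept a 1229-nt intron in 6 of 30 (20.0%) and 12 of 30 reads, and Srsf7 an 874-nt one in 5 of 22 (22.7%) and 0 of 22 (unadjusted p = 0.0485, adjusted p = 1.0 by Fisher's exact test), all inside internal exons. Of these 3 introns only that of Srsf7 had more retained reads in replicate 1. Other high values came from terminal exons. The 502-nt intron of Srsf2 was covered in 54 of 62 (87.1%) and 61 of 72 reads (84.7%), and the 881-nt intron of Srsf1 in 25 of 28 (89.3%) and 18 of 22 (81.8%), in each case only by the first or last exon of a model. An intron inside the last exon that few reads splice gives the same picture in Qk (1669 nt, 66 of 66 and 95 of 96), Rbm20 (116 nt, 31 of 32 and 67 of 67) and Rbm24 (148 nt, 114 of 114 and 194 of 195). These introns are not annotated. The 1059-nt intron of Srsf2 was kept in 6 of 53 (11.3%) and 8 of 71 (11.3%). Hnrnpl kept a 111-nt intron in 3 of 39 (7.69%) and 5 of 37 (13.5%). Hnrnph3 had 3 reads in replicate 2, and 0 in replicate 1, on models that cover each of 8 introns. None of these reads hold an intron inside an internal exon. Hnrnph3 also had 3 single-exon genomic reads in replicate 2, so the 8 introns may count the same unspliced reads. Clk4, known for introns it keeps, had 1 of 12 and 3 of 18 reads with its 1055-nt intron and 1 of 12 and 2 of 18 with its 391-nt intron, below the read minimum. When only internal exons count, 0 of 8 member introns and 0 of 628 introns in all genes pass, with 2 and 5 at an unadjusted p under 0.05.

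**Figure D5:**
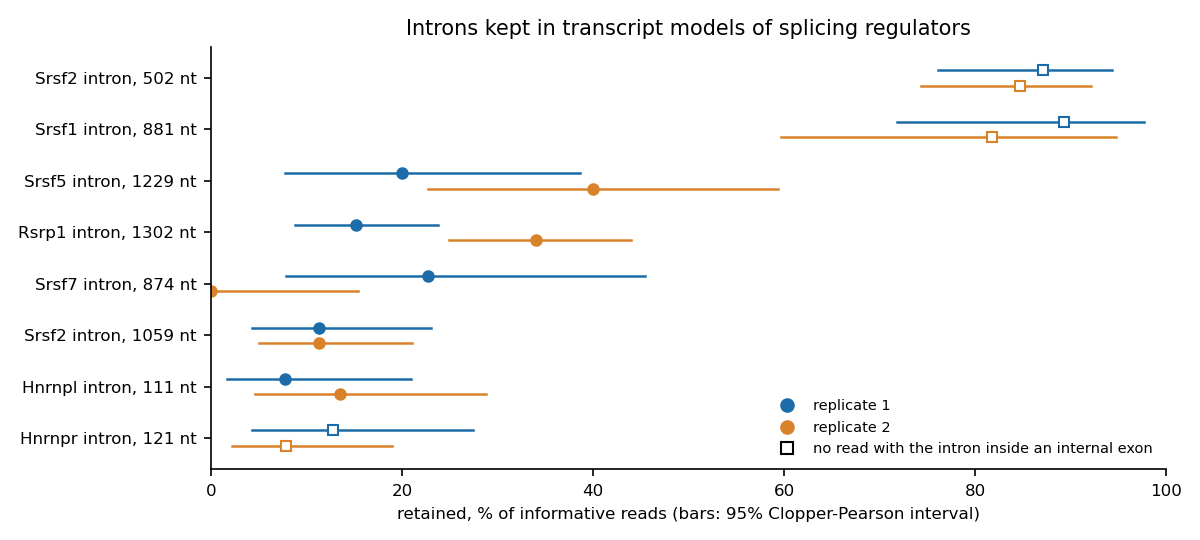
Retention of annotated member introns with a mean of at least 10%, in percent of informative reads, for each library with 95% Clopper-Pearson intervals. Filled points have at least 1 read with the intron inside an internal exon and open squares have none. The Rsrp1 intron lies at 15.2% and 34.0%.

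The rest of the splicing machinery was read from lists of other genes. The core snRNP proteins summed to 765.5 ± 76.7 CPM (SD, n = 2), led by Snrpb at 153.6 ± 4.51 CPM, a shared Sm ring protein. The 9 SF3 subunits and Sf1, which act at the branch site, summed to 469 ± 15.1 CPM. The SR protein kinases summed to 189.5 ± 5.24 CPM, with the muscle kinase Srpk3 highest at 60.6 ± 1.58 CPM. In these 3 lists 0 genes passed the exact binomial test, with 2, 2 and 0 at an unadjusted p under 0.05. Exon junction and decay factors summed to 313 ± 31.5 CPM, also with 0 called and 0 at an unadjusted p under 0.05. Other regulators summed to 1668 ± 198 CPM, led by the helicase Ddx5 at 289 ± 6.57 CPM. Among the 69 genes of the 5 lists that could be tested, 7 had an unadjusted p under 0.05, 0 passed as higher in replicate 2 and 1 as lower: Pnisr, an arginine/serine-rich protein gene, with 142 and 15 reads (log2 -3.70, adjusted p = 5.28e-36 by the exact binomial test).

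Positions shared with other genes make some of these counts uncertain. Exons of 11 members overlap genes on the opposite strand, such as Cox20 (133 and 194 reads) at Hnrnpu and Elob (236 and 425 reads) at Srrm2, and Hnrnpm overlaps March2 on the same strand.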

How the data were processed

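Long-read cDNA from heart RNA was sequenced in 2 libraries. The authors deposited whole read counts per transcript model with the class of each model, and a file of exon positions. Per the file headers the build is mm10, the annotation GENCODE M21 and the model source TALON. The aligner and the read filters are not given in these sources. The members and gene lists were chosen with earlier results of these data known. Member genes were found by name and their reads summed over all models, then divided by the mouse reads of the library. Tests were the exact two-sided binomial test and Fisher's exact test with Benjamini-Hochberg adjustment over all features, at 0.05, and intervals were 95% Clopper-Pearson. Genes needed 10 reads in all for levels, 20 in each library for transcripts, exons and introns, and forms 1% of reads. All members are named, with full values for the 4 highest of each role and those called. Named exons are up to 15 with inclusion of 10 to 90% and up to 10 decay exons, and named introns and new models are the 10 highest; others named in the text were chosen after their values were seen. The tests were checked on simulated counts. Python 3.11.15, scipy 1.17.1, R 4.3.3 with edgeR 4.0.16 and DESeq2 1.42.0 and blastn 2.17.0 were used. Sequences come from the transcripts of GENCODE M21. Alternatives were other scalings, read minimums, model classes and leaving out a library. Reads of the CAST/EiJ allele are counted on the mm10 reference. The ends of a model are not the ends of its reads.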

Additional observations from a re-analysis of the deposited data

How the results depend on the processing

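The number of members whose gene reads differ between libraries is 1 and becomes 0 with TMM factors, with DESeq2 size factors, with no minimum of reads and without genomic models (4, 4, 7 and 7 at an unadjusted p under 0.05, exact binomial test). Over all genes 291, 291, 265 and 343 pass in these settings, with 1013, 1016, 1162 and 1064 at an unadjusted p under 0.05. The member count stays 1 with a minimum of 20 reads. With known models only it is also 1, but the gene is then Hnrnpa2b1 (adjusted p = 0.000388), whose known reads were 31.7% and 18.5% of its reads. The number of members with a changed top share rises from 0 to 1 (Rsrp1, adjusted p = 0.0329) with a minimum of 50 reads, and over all genes it drops from 32 to 2 without incomplete and genomic models. For introns the member count rises from 0 to 1 (Rsrp1, adjusted p = 0.0437) with a minimum of 50 reads, and over all genes it is 9 without genomic models, 0 with known models only (8 at an unadjusted p under 0.05) and 0 with internal exons only (5), a setting chosen after seeing the data, beside 42. The genomic share difference is 1.27 percentage points without Hnrnpa2b1, beside 1.75, and 0.0305 without single-exon new models. Without spliced models of more than 1 class, the NNC difference is 0.646 points, beside 2.50, and the NIC difference turns to 0.0622 from -1.45. Both settings on classes were chosen after seeing the data. The cause of these changes was not tested. Leaving out a library gives a summed level of 3763 to 4085 CPM, and TMM factors give 3922. Inclusion with known models only was 82.0% for the 120-nt exon of Hnrnpa2b1, 86.5% for the 26-nt exon of Hnrnpc and 100% for the 36-nt exon of Srsf7. The Rbm38 difference kept its sign under the alternatives tried (log2 -0.36 to -0.50). No paired analysis was possible because there is only 1 group. With a minimum of 10 reads 78 member exons and 45 member introns could be tested, with 0 called in each (1 and 4 at an unadjusted p under 0.05, Fisher's exact test). Over all genes 0 of 6751 exons and 46 of 3533 introns were called, with 98 and 116 at an unadjusted p under 0.05. Genes, exons and introns with fewer reads were not tested.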
